A study of Mus musculus with 11 samples.

Results

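Genes that mark mesothelial cells were followed in RNA-seq of 11 libraries of mouse lung. Of these, 6 came from tumors and 5 from normal lung next to them, taken from 5 mice. The members were the rows whose symbol was one of 8 listed markers (Msln, Upk3b, Upk1b, Gpm6a, Wt1, Lrrn4, Bnc1 and Muc16), summed by symbol, and 7 of the 8 had a row among 24515 gene symbols. Muc16, a membrane mucin that mesothelin binds, had a row neither under its symbol nor under its RefSeq synonyms, and was not analysed here. Tumors carried the title tag ADN in 3 libraries (mice m335, m368 and m350) or ADC in 3 (mice m335, m372 and m378), tags whose meaning is not written out in the labels. The normal lungs came from the same 5 mice, so the ADN and the ADC tumor of mouse m335 shared 1 normal lung. Mice of all groups, the normal lungs included, were Gprc5a-/- and had been given 50 mg/kg of the tobacco nitrosamine NNK into the peritoneum, 3 times a week for 8 weeks. Tissue was taken 4 months later from mouse m335, 6 months later from mouse m368 and 7 months later from the others. Strain and age are not given in the labels, and lungs of mice with Gprc5a or without NNK were not analysed here.

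Mesothelial cells form the flat epithelium of the pleura, the membrane that wraps the lung and lines the chest wall. They secrete a lubricating film, carry keratins together with mesenchymal genes, and in the embryo descend from a mesoderm that expresses Wt1. Msln and Muc16 encode cell surface proteins, Upk1b and Upk3b encode membrane proteins named after the bladder lining, Gpm6a and Lrrn4 encode membrane proteins better known from neurons, and Wt1 and Bnc1 encode zinc finger transcription factors.

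In tumors against normal lungs, 6 of the 7 genes fell (Msln, Upk3b, Upk1b, Gpm6a, Wt1 and Lrrn4), by 1.80 to 3.55 on the log2 scale. The seventh, Bnc1, stood at -4.00 ± 1.13 (SE) with an adjusted p of 0.0541. Over all 15175 genes tested, 7.91% were called lower in the same comparison. Calls came from edgeR's quasi-likelihood fit, in which each mouse was a block, at a threshold of 0.05 on the p adjusted over the whole table. No member was called higher, against 3.68% of all genes. By DESeq2 and limma-voom 7 members were called, where these tools called 21.7% and 13.0% of all genes in either direction, and without the mouse as a block 5 were called (14.8% of all genes). All 42 differences between a tumor and its own normal lung were negative. Each of the 7 genes was thus lower in 6 of 6 tumors, which held for 13.8% of all genes tested. Their median log2 fold change was -3.07, while that of all genes tested was -0.03. In bulk tissue, fewer mesothelial cells and less RNA per mesothelial cell cannot be told apart.

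**Figure D1:**
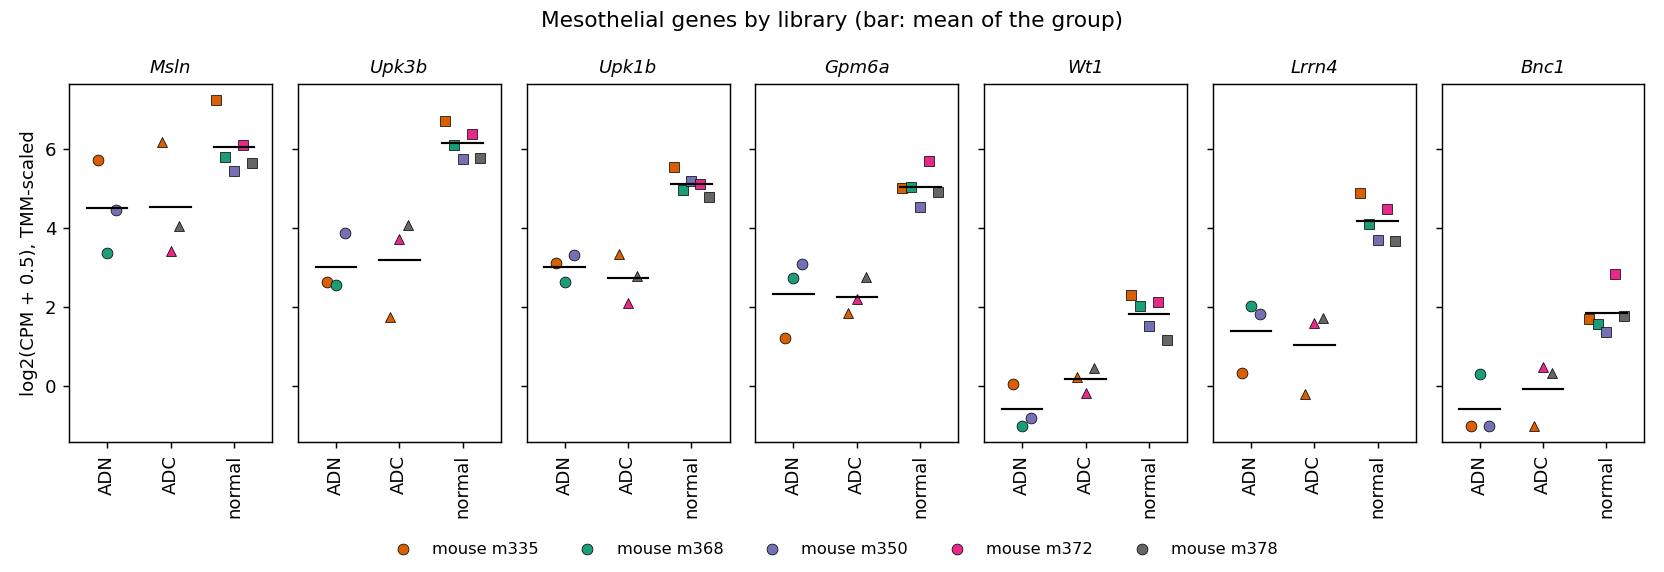
Level of each of the 7 genes in every library as log2(CPM + 0.5), where CPM is a count scaled to TMM-adjusted library size. Circles are ADN tumors, triangles ADC tumors and squares normal lungs, colors mark the mouse and bars the group mean. Tumors and normal lungs overlap for Msln only.

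The promoter sequences of members with an entry are shown because these genes were low together in the tumors and the letters before their start sites can be set side by side. RefSeq's promoter table (GRCm38.p6) held entries for 4 of the 7 measured members. The 250 bases before the start site that the deposited rows use are printed 5′ to 3′ on the gene's strand. Capitals mark matches on either strand to the letters GGAATG (the MCAT motif bound by TEAD factors), GGGCGG (the GC box) and GTGGGCG (a core shared by EGR factors and WT1). The TATA box (TATAAA), the CCAAT box (CCAAT) and the GATA letters (AGATAA) were searched in the same way and had no match in these 4 windows. The E-box (CANNTG), found in 66.2% of all windows, had matches in Upk3b and Gpm6a that are not marked. A second entry of Gpm6a, at a start site nearer to the gene's end, is not printed. It held the TATA box letters on the opposite strand, beginning 211 bases before its start site, and no MCAT letters.
Upk3b (chr5:136038246-136038495, plus strand): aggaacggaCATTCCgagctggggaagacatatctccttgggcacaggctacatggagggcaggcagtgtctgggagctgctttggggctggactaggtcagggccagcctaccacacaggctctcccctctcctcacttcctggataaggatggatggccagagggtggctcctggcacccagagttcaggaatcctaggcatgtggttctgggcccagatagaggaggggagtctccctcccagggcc
Lrrn4 (chr2:132880863-132881112, minus strand): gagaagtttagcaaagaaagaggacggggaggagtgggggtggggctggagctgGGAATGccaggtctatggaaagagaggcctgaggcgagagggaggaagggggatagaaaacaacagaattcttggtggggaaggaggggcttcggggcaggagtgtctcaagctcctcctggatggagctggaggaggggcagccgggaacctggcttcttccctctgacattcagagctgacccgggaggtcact
Gpm6a (chr8:54779184-54779433, plus strand): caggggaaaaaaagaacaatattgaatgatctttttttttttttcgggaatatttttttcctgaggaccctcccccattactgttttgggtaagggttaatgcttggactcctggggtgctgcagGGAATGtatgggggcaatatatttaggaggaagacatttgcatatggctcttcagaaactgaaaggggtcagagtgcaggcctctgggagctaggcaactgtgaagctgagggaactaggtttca
Bnc1 (chr7:81992300-81992549, minus strand): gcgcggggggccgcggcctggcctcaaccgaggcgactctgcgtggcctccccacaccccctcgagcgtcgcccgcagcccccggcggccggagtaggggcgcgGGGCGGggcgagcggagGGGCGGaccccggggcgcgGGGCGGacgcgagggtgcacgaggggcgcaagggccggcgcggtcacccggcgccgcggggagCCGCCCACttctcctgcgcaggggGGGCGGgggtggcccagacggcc
The MCAT letters stood once in Upk3b, Lrrn4 and Gpm6a and not in Bnc1, and 12.6% of 32536 RefSeq promoter windows of the same length held them. In Upk3b the match began 241 bases before the start site, on the opposite strand, in Lrrn4 196 bases before it and in Gpm6a 125 bases before it. Bnc1 had 5 matches to the GC box, found in 33.0% of all windows, and 1 to the EGR and WT1 core, found in 7.05%. That core overlaps the GC box of Bnc1 that begins 47 bases before the start site. In Bnc1 the GC content was 83.6%, against a median of 52.4% over all windows, and it was 60.8% in Upk3b, 59.2% in Lrrn4 and 44.4% in Gpm6a. A match is a description of letters and not a measured binding site.

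Msln encodes mesothelin, a surface protein anchored by a lipid tail that is used as a marker of mesothelioma. The gene lies on chromosome 17 (25748613 to 25754327, minus strand, GRCm38). It stood at 51.6, 9.81 and 21.2 CPM in the ADN tumors of mice m335, m368 and m350 and at 71.2, 10.1 and 15.9 CPM in the ADC tumors of mice m335, m372 and m378. In the normal lungs it stood at 149, 54.8, 42.5, 67.5 and 49.5 CPM (mice m335, m368, m350, m372 and m378, an order kept for normal lungs from here on). Of the tumors of mouse m335, the ADN tumor lay among the normal lungs of the other mice and the ADC tumor above all 4 of them, and Msln was the only member whose groups overlapped. Each tumor kept 15.0% to 49.8% of the level in the normal lung of its mouse. The log2 fold change was -1.80 ± 0.28 (SE, adjusted p = 0.00426 by edgeR's quasi-likelihood test). The call rested on the comparison within mice, since without the mouse as a block the value was -1.28 ± 0.55 with an adjusted p of 0.145.

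Upk3b and Upk1b encode uroplakins, which in the bladder form rigid plaques on the surface of the lining. Upk3b (chromosome 5, 136038496 to 136044993, plus strand) is a single-pass uroplakin and a common marker of mouse lung mesothelium. It stood at 5.72, 5.34 and 14.1 CPM in ADN tumors, at 2.84, 12.7 and 16.4 CPM in ADC tumors and at 102.9, 67.3, 52.4, 82.3 and 54.0 CPM in normal lungs. The highest tumor was thus below every normal lung, and the lowest, the ADC tumor of mouse m335, kept 2.76% of the level of its own normal lung. Upk3b fell by 3.07 ± 0.46 on the log2 scale (SE, adjusted p = 0.00353 by the same test). With the normal lung from m335 left out, the value was -2.48, and with mice at 7 months only it was -2.07. Both passed (adjusted p = 0.0116 and 0.00118 by the same test). With the mouse as a block, the first setting also leaves both tumors of mouse m335 without a normal lung, so they no longer inform the fold change.

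Upk1b (chromosome 16, 38773184 to 38800203, minus strand) encodes a tetraspanin, a protein with 4 membrane spans that pairs with type 3 uroplakins in the bladder. It stood at 8.07, 5.72 and 9.35 CPM in ADN tumors, at 9.67, 3.78 and 6.40 CPM in ADC tumors and at 45.5, 30.4, 35.8, 34.2 and 27.0 CPM in normal lungs. No tumor reached the lowest normal lung, and the spread within each group was the narrowest of the 7 genes (a coefficient of variation of 31.8% over tumors and 20.2% over normal lungs). Its fold change was the most precise of the members at -2.39 ± 0.21 (SE, adjusted p = 0.000684). It passed under each of the 20 alternatives run, with values from -2.57 to -2.21.

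The other uroplakins had few counts. Upk1a, Upk2 and Upk3a, which the bladder lining expresses, averaged 0.347, 0.212 and 0.771 CPM in tumors and 0.628, 0.133 and 3.42 CPM in normal lungs. Of these, Upk2 was below the filter on low counts, as was Upk3bl, with 56 counts over all tumors and 3 over all normal lungs. Upk1a (-1.17 ± 0.87) and Upk3a (-2.32 ± 0.91) did not pass (SE, adjusted p = 0.451 and 0.146).

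Gpm6a encodes a 4-span membrane glycoprotein of neurons. It lies on chromosome 8 (54779434 to 55060878, plus strand). It stood at 1.81, 6.11 and 8.03 CPM in ADN tumors, at 3.08, 4.08 and 6.24 CPM in ADC tumors and at 31.5, 32.4, 22.4, 50.7 and 29.6 CPM in normal lungs. The groups lay apart, and the 2 tumors with the lowest levels were those of mouse m335. Gpm6a fell by 2.78 ± 0.36 on the log2 scale (SE, adjusted p = 0.00194 by edgeR's quasi-likelihood test). The file splits the gene into 3 transcripts, and the one with the most distant start held 94.3% to 99.6% of its counts in every library. Its relative Gpm6b stood at -0.98 ± 0.28 (SE) and did not pass (adjusted p = 0.0557 by the same test).

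Because Gpm6a is also a gene of neurons, markers of nerve tissue were set beside it. Of 6 neuron and Schwann cell markers 4 were tested and 1 fell, namely Stmn2, a microtubule regulator of neurons, at -2.56 ± 0.29 (SE, adjusted p = 0.00121). Snap25, a protein of synapses, averaged 0.0115 CPM in tumors and 0.0290 CPM in normal lungs, and Sox10, a factor of Schwann cells, 0.0386 and 0.108 CPM in the same groups. The sum of the 6 markers ranged from 11.3 to 24.9 CPM over tumors and from 40.9 to 74.1 CPM over normal lungs, most of it Stmn2 in normal lungs (46.1 CPM on average). The part of nerve tissue in the level of Gpm6a was not tested.

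Lrrn4 encodes a leucine-rich repeat protein of the membrane and is another marker of mouse lung mesothelium. It lies on chromosome 2 (132868516 to 132880862, minus strand). It stood at 0.770, 3.59 and 3.03 CPM in ADN tumors, at 0.372, 2.54 and 2.80 CPM in ADC tumors and at 28.7, 16.7, 12.3, 21.7 and 12.3 CPM in normal lungs. Mouse m335 had the highest normal lung and the 2 lowest tumors, which kept 2.69% (ADN) and 1.30% (ADC) of it. In the other 4 mice the tumors kept 11.7% to 24.6%. Lrrn4 fell by 3.21 ± 0.59 on the log2 scale (SE, adjusted p = 0.00948), and stood at -2.36 with the normal lung from m335 left out (adjusted p = 0.00936). With the mouse as a block, the tumors of mouse m335 then have no paired normal lung and do not inform that value either.

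The relatives of Lrrn4 moved in part. Lrrn4cl, a short relative named after it, fell by 2.14 ± 0.48 and Lrrn3 by 2.21 ± 0.43 on the log2 scale (SE, adjusted p = 0.0228 and 0.0123). Lrrn2 stood at -0.38 ± 0.60 (adjusted p = 0.746), and Lrrn1 had too few counts to be tested, with 62 over the tumors and 23 over the normal lungs.

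Wt1, a zinc finger factor needed for the development of the mesothelium, kidney and heart lining, lies on chromosome 2 (105126529 to 105173614, plus strand). It had 16, 0 and 2 counts in ADN tumors, 20, 17 and 22 counts in ADC tumors and 156, 115, 76, 86 and 62 counts in normal lungs. That is at most 0.869 CPM in a tumor and at least 1.76 CPM in a normal lung, so the groups lay apart at a low level. A count of 0, as in the ADN tumor from mouse m368, allows up to 0.0950 CPM (3 counts, counting error only, on the library total without TMM scaling). Wt1 fell by 3.55 ± 0.92 on the log2 scale (SE, adjusted p = 0.0386). The call was lost without the normal lung or the ADN tumor of mouse m335 (adjusted p = 0.106 and 0.0745). It was also lost without either library of mouse m350 (0.110 without the normal lung and 0.103 without the tumor) and of mouse m372 (0.111 and 0.105). The log2 fold change under these 6 settings was -3.90 to -3.21. Leaving out either library of mouse m350 or m372 leaves the other without a pair in its block. The 2 settings of each of these mice therefore nearly repeat each other. Wt1os, an RNA named as the opposite strand of Wt1, had 9 counts over the tumors and 20 over the normal lungs.

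Bnc1 encodes basonuclin, a zinc finger protein of stem-like cells in stratified epithelium and of germ cells that mesothelium also expresses. It lies on chromosome 7 (81966662 to 81992299, minus strand). It had 0, 21 and 0 counts in ADN tumors, 0, 39 and 19 counts in ADC tumors and 96, 80, 67, 145 and 103 counts in normal lungs. A count of 0 allows 0.0942, 0.105 and 0.10 CPM, on library totals, in the ADN tumors of mice m335 and m350 and the ADC tumor of mouse m335. No tumor exceeded 0.900 CPM, and the lowest normal lung stood at 2.07 CPM. Bnc1 did not pass in edgeR's quasi-likelihood test (adjusted p = 0.0541), but it did in DESeq2 (0.000108), in limma-voom (0.0298), on library totals (0.0399) and without the ADC tumor of mouse m335 (0.0416). An annotated pseudogene on the opposite strand shares 98 exonic bases with Bnc1. Its relative Bnc2 fell by 2.53 ± 0.61 on the log2 scale (SE, adjusted p = 0.0298).

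In 6 of the 7 genes (all but Msln) every tumor lay below every normal lung, while 7.91% of all genes tested did so. Levels of different genes were compared per kilobase of exon. In normal lungs Upk3b (35.2 ± 10.4 CPM per kilobase) and Msln (34.4 ± 20.7) were highest on average (SD, n = 5). Msln was above Upk3b in the normal lung of mouse m335 (70.6 against 50.6 CPM per kilobase), and Upk3b was above Msln in each of the others. Upk1b followed at 19.6 ± 4.0, Gpm6a at 10.4 ± 3.3 and Lrrn4 at 5.27 ± 2.0. Wt1 (1.04 ± 0.36) and Bnc1 (0.723 ± 0.39) came last, within each other's spread. In tumors Msln stood first at 14.2 ± 12.0 CPM per kilobase, with Upk3b at 4.67 ± 2.7 and Upk1b at 4.05 ± 1.3 (SD, n = 6), which lay within each other's spread. The mean of Msln was set by the tumors of mouse m335, at 24.4 (ADN) and 33.7 (ADC) CPM per kilobase. In the ADC tumors of mice m372 and m378 Upk3b was higher than Msln, at 6.22 against 4.79 and 8.05 against 7.52 CPM per kilobase. The exon length of Gpm6a was taken from a transcript with a nearer start, so its level per kilobase is approximate.

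The tumors differed in which members were left. In the ADN tumor of mouse m335 Msln kept 34.6% and Upk1b 17.7% of the normal level, but Upk3b, Gpm6a and Lrrn4 kept 5.56%, 5.74% and 2.69%. Its ADC tumor kept more of the first pair: Msln kept 47.7% and Upk1b 21.2%, and Upk3b, Gpm6a and Lrrn4 kept 2.76%, 9.78% and 1.30%. Bnc1 was at 0 counts in both. The ADC tumor of mouse m372 was more even, with all 7 genes between 8.05% (Gpm6a) and 15.4% (Upk3b). In the ADC tumor of mouse m378 the 7 genes kept 21.1% (Gpm6a) to 49.3% (Wt1). The ADN tumor of mouse m368 had no count of Wt1 and kept 7.94% (Upk3b) to 29.5% (Bnc1) of the others. The ADN tumor of mouse m350 kept between 24.6% and 49.8% of 5 genes, but 3.04% of Wt1 and no count of Bnc1.

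**Figure D2:**
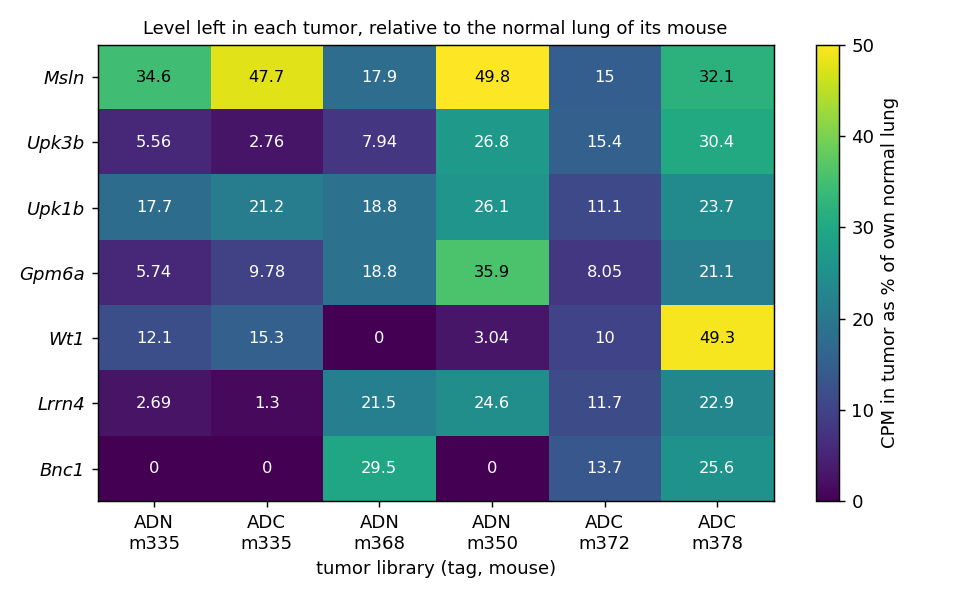
CPM in each tumor as a percentage of the CPM in the normal lung of the same mouse, for the 7 genes (rows) and 6 tumors (columns). Both tumors of mouse m335 kept 34.6% and 47.7% of Msln but at most 9.78% of Upk3b, Gpm6a and Lrrn4.

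The same contrast appeared in the make-up of the counts within a library, which does not depend on scaling between libraries. For each count of Upk3b there were 9.02 counts of Msln in the ADN tumor and 25.1 in the ADC tumor from m335. The other 4 tumors had 0.800 to 1.84, and the normal lungs 0.811 to 1.45, with the highest of these in mouse m335. Msln made up 75.3% and 81.1% of the summed counts of the 7 genes in the tumors of mouse m335, 29.4% to 38.0% in the other tumors and at most 40.9% in normal lungs. For Upk1b the ratio to Upk3b was 1.41 in the ADN tumor and 3.40 in the ADC tumor from m335, and 0.415 to 0.684 in normal lungs. It was also above the normal lungs in the ADN tumor from m368, at 1.07, and stood at 0.665 in the ADN tumor from m350 and at 0.299 and 0.390 in the ADC tumors from m372 and m378. Mouse m335 was the only mouse taken at 4 months, so time after NNK and this mouse cannot be told apart.

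**Figure D3:**
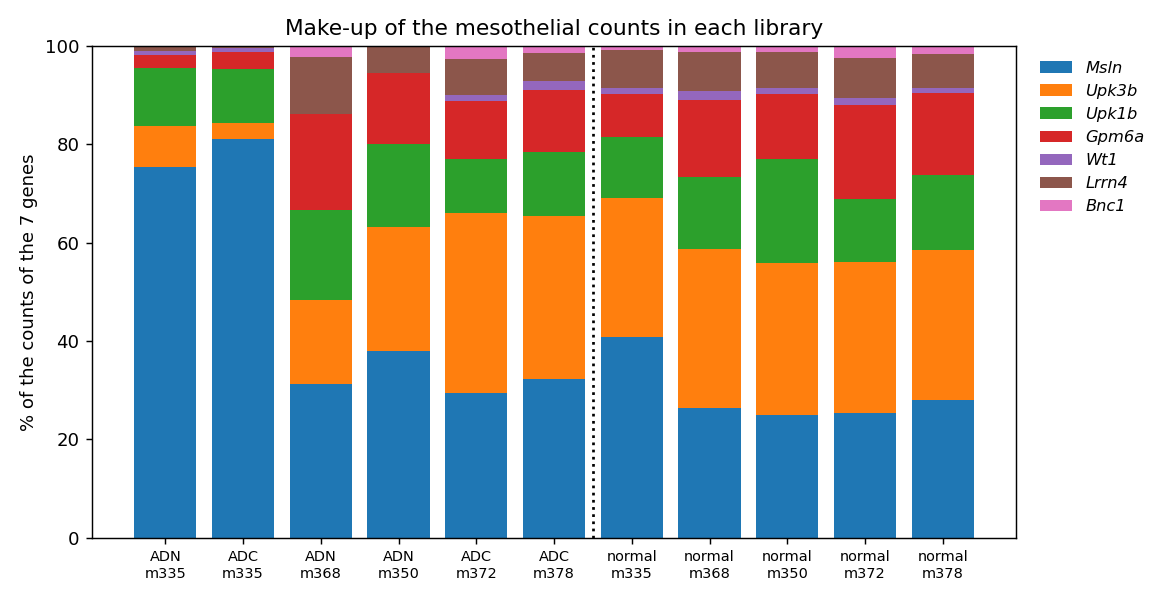
Share of each gene in the summed counts of the 7 genes (percent, stacked), by library, with tumors left of the dotted line and normal lungs right of it. Msln takes 75.3% and 81.1% in the 2 tumors of mouse m335 and at most 40.9% in the other libraries.

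Across the 11 libraries, with the tumor mean and the normal mean removed from each gene, the members were compared by their Pearson correlation of log2 CPM. Msln correlated with Upk1b (0.78) and Wt1 (0.53), which correlated with each other at 0.15 only, and ran against Lrrn4 (-0.61) and Bnc1 (-0.71). Upk3b, Gpm6a and Lrrn4 correlated with one another at 0.57 to 0.78, and Bnc1 with these 3 at 0.42 to 0.64. The libraries come from 5 mice and share scaling and depth, and 2 of them are the tumors of mouse m335 described above, so these coefficients are a description with no test.

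**Figure D4:**
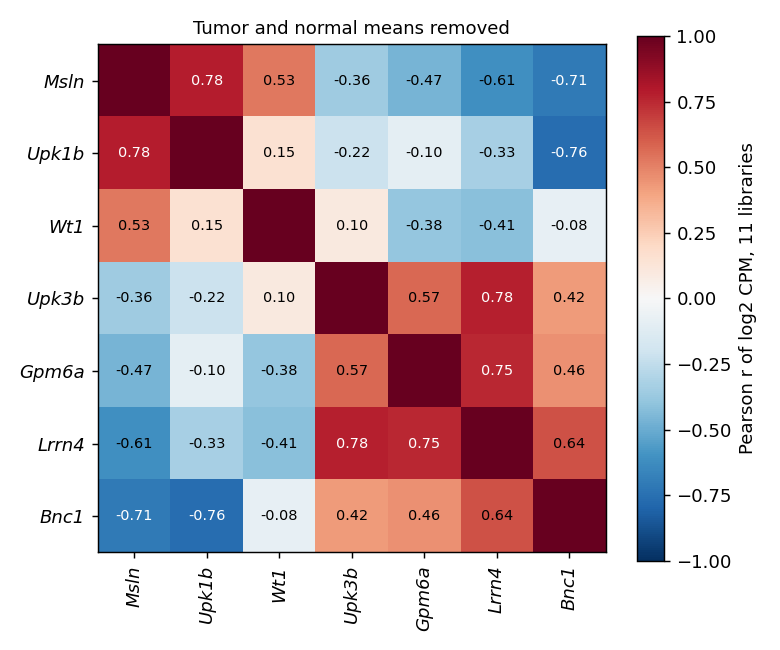
Pearson correlation of log2 CPM between the 7 genes over 11 libraries, after the tumor mean and the normal mean of each gene were removed. Upk3b, Gpm6a, Lrrn4 and Bnc1 correlate positively with one another, and Msln with Upk1b and Wt1.

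Set against normal lungs, ADN and ADC tumors each had 4 of the 7 genes called lower, and the genes were Msln, Upk3b, Upk1b and Gpm6a in both. Of all genes tested 4.84% were called lower in ADN tumors and 3.98% in ADC tumors. Both comparisons use the same 5 normal lungs. The log2 fold changes in ADN tumors were -1.82 ± 0.39 for Msln, -3.06 ± 0.66 for Upk3b, -2.34 ± 0.30 for Upk1b and -2.64 ± 0.53 for Gpm6a (SE, adjusted p from 0.00846 to 0.0315). In ADC tumors they were -1.77 ± 0.38, -3.08 ± 0.68, -2.43 ± 0.30 and -2.89 ± 0.51 in the same order (SE, adjusted p from 0.00701 to 0.0432). Lrrn4 stood at -2.91 ± 0.83 in ADN and -3.53 ± 0.87 in ADC tumors (SE, adjusted p = 0.0759 and 0.0624). Wt1 had an adjusted p of 0.0557 in ADN and 0.234 in ADC tumors, and Bnc1 of 0.142 and 0.274. These counts rest on few tumors. The share of all genes called was not worked out for the settings that leave libraries out. A change in their counts can therefore not be told from a change over all genes. Without the ADN tumor of mouse m335 the count in ADN tumors was 0, without either library of mouse m368 it was 1 and without either library of mouse m350 it was 2. In ADC tumors the count was 1 without either library of mouse m372 or m378, and it was 2 when the ADN tumor of m335, or one of the pair from m368, was left out. With mice at 7 months only, it was 6 in ADC tumors and 1 in ADN tumors, of which 1 library was then left and was assumed to vary like the other groups. DESeq2 called 7 in ADN and 7 in ADC tumors (19.3% and 12.2% of all genes tested, either direction), and limma-voom 6 and 5 (9.15% and 5.88%). Without the block the counts were 5 and 4 (11.7% and 10.2%).

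**Figure D5:**
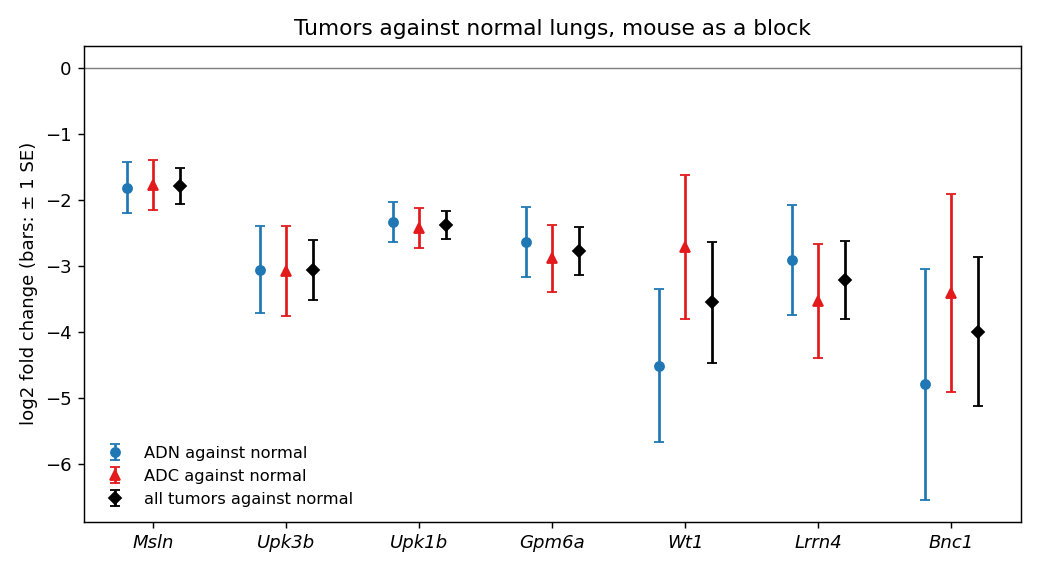
Log2 fold change of each gene in ADN tumors, ADC tumors and all tumors against normal lungs, from edgeR's quasi-likelihood fit with the mouse as a block. Bars show 1 SE on each side. All values are below 0, and the error bars of ADN and ADC tumors overlap for each gene.

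Set directly against ADN tumors, ADC tumors had 0 of the 7 genes called (0% of all genes tested by edgeR's quasi-likelihood test). At an unadjusted p under 0.05 the count was also 0, and it was 0 by DESeq2, which called 0.824% of all genes, and 0 by limma-voom. Without the block it was 0 too, where 0.0198% of all genes were called. The log2 difference was 0.04 ± 0.45 for Msln, -0.02 ± 0.84 for Upk3b, -0.09 ± 0.36 for Upk1b and -0.25 ± 0.64 for Gpm6a (SE). It was -0.62 ± 1.12 for Lrrn4, 1.80 ± 1.27 for Wt1 and 1.39 ± 2.23 for Bnc1 (SE), and adjusted p-values were at least 0.815. A p that misses the threshold does not show that the tags are alike, and the errors of Wt1, Lrrn4 and Bnc1 exceed 1 on the log2 scale.

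Further genes known from mesothelium were described as a list of 16. Of the 13 that were tested, 6 fell and 0 rose, with a median log2 fold change of -2.14. Cldn15, a pore-forming claudin, averaged 2.85 ± 1.17 CPM in tumors (SD, n = 6) and 20.9 ± 5.3 CPM in normal lungs (SD, n = 5), a log2 fold change of -2.89 ± 0.34 (SE, adjusted p = 0.00126). Nkain4, a partner of the sodium pump, fell by 3.18 ± 0.38 on the log2 scale (adjusted p = 0.00149). Efemp1, a matrix protein that fibroblasts also make, fell by 2.54 ± 0.32, and Igfbp6, a binding protein of insulin-like growth factors with the same double source, by 3.10 ± 0.49 (SE, adjusted p = 0.00182 and 0.00461). Each of these was lower in 6 of 6 tumors than in the own normal lung. Dmkn, which keratinocytes express too, stood at 1.5 ± 0.49 (SE) and did not pass (adjusted p = 0.0899 by edgeR's quasi-likelihood test). Calb2, the marker of human mesothelium calretinin, had 6 counts over all tumors and 6 over all normal lungs. Mslnl, a relative of Msln, had 5 and 14 counts in the same groups.

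Of 10 genes that mesothelium shares with epithelium 3 rose and 1 fell, with a median of 0.61. The keratins Krt8 (1.46 ± 0.27) and Krt18 (1.88 ± 0.36) and the adhesion gene Cdh1 (1.0 ± 0.18) rose on the log2 scale (SE, adjusted p = 0.00964, 0.0114 and 0.00886). Podxl, a surface sialomucin that endothelium also carries, fell by 1.91 ± 0.28 (adjusted p = 0.00322). Pdpn, which alveolar type 1 cells express too, stood at -0.49 ± 0.26 (adjusted p = 0.275).

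Of the genes tested, 8 outside the members had the pattern most like their mean z-score over the 11 libraries. Among them were 6430584L05Rik, Arhgef10, Iffo1, Cldn15, Gp9, Cacna1d and Wfdc6b, with Pearson correlations from 0.965 to 0.978. Gp9, which encodes a platelet glycoprotein, averaged 0.0543 CPM in tumors and 2.76 CPM in normal lungs. Near the floor as well were 6430584L05Rik (0.0098 CPM in tumors, 0.471 CPM in normal lungs) and Wfdc6b (0.0461 and 0.967 CPM). Among the members themselves Upk3b was closest to that mean (0.95) and Msln farthest from it (0.66). With the tumor and normal means removed, the 8 closest were Naf1, Gcsh, Alas1, Wdr6, Morn5, Eda, Nek3 and Ppp2cb, at 0.777 to 0.924. The members themselves shared little of that mean: Msln correlated with it at 0.06, Upk1b at 0.18, Wt1 at 0.31 and Bnc1 at 0.33. Lrrn4 (0.62), Gpm6a (0.63) and Upk3b (0.79) were closer, so likeness to this mean is not likeness to each member. The 2 sets of 8 genes are descriptions over 11 libraries of 5 mice.

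Markers of other cell types moved as well. Of 8 endothelial markers 7 fell, and their summed level was 517 to 936 CPM over tumors and 2585 to 4177 CPM over normal lungs. In the smooth muscle and pericyte list 3 of 6 fell, in the alveolar type 1 list 3 of 6 and in the fibroblast list 3 of 8 (763 to 1372 CPM over tumors, 1494 to 2318 CPM over normal lungs). In the ciliated list 1 of 5 fell and in the club cell list 0 of 5. Of 6 alveolar type 2 markers 3 rose and 0 fell. Of the cardiac muscle markers 1 of 4 tested rose, and of the urothelial markers 0 of 2 passed. Of these lists, none had a marker at 0 counts throughout the tumors or throughout the normal lungs. Summed over the 7 genes, the mesothelial level was 31.3 to 87.8 CPM over tumors and 170 to 365 CPM over normal lungs. The part of these other cell types in the mesothelial result was not tested.

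The normal lungs also carried muscle and fat in unequal amounts. The sum of 6 skeletal muscle markers was 1.86 to 6.94 CPM over tumors, and in normal lungs 539, 49.1, 7.83, 45.6 and 114 CPM. The highest of these, mouse m335, also had the highest Msln, Upk3b, Upk1b, Wt1 and Lrrn4 of the normal lungs. For 6 adipocyte markers the sum was 7.03 to 24.7 CPM over tumors, and 34.0, 654, 49.4, 164 and 139 CPM in normal lungs. The 7 mesothelial genes summed to 365, 208, 170, 267 and 177 CPM in the normal lungs, and to 31.3 to 87.8 CPM over tumors. The part of attached chest wall or fat in the mesothelial level was not tested.

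Total counts ranged from 19938821 to 46987586 per library. Gprc5a, the deleted gene, had 0 to 19 counts in each. The ribosomal precursor Rn45s accounted for 7.29% to 19.2% of them, and leaving it out left the number of members called at 6, 4, 4 and 0 in the 4 comparisons.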

How the data were processed

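RNA from 6 lung tumors and 5 adjacent normal lungs was selected for poly-A and sequenced on an Ion Proton (Ion Total RNA-Seq Kit v2), per the labels' protocols. The submitters' processing notes name STAR 2.4.1d, Bowtie2 2.1.0, Partek and the build mm10. For their roles, annotation and strand, nothing is stated in those notes. The deposited values are expected counts, 1 row per RefSeq transcript (36285 rows) and 1 column per library, not normalized. The 9 rows of the members were summed by symbol, as were all others, and rounded to whole numbers. Ends are printed with 1 base removed, because the file's ends lie 1 base past those of RefSeq.

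Genes were kept with filterByExpr (15175 genes, 99.9% of the counts), scaled by TMM and tested with edgeR 4.0.16 (quasi-likelihood, robust) in R 4.3.3, two-sided, with Benjamini-Hochberg adjustment over all genes tested. The procedure was run on simulated counts with the same spread for all genes and no differences between mice. That run therefore does not test the mouse block, and its outcome is not reported here. The mouse was a fixed block, since the labels give the mouse of each library. Deviations from group means correlated at -0.0444 to 0.254 between a tumor and its own normal lung, and the own lung ranked first for 2 of 6 tumors. DESeq2 1.42.0 and limma 3.58.1 were alternatives. Libraries of one tag came from separate mice. CPM use TMM-scaled library sizes, except the limits given for counts of 0, which use library totals. Correlations used a prior count of 2. Differences per tumor are percentages of CPM.

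The members and gene lists were chosen with earlier results of these data known. All 8 members were named, with the 4 lowest adjusted p of each further list, the measured relatives and the 8 genes of the most similar pattern, except that some genes this rule names are not reported here. Other genes named from these lists, and the thymus and keratinocyte markers, were chosen after their values were seen.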

Additional observations from a re-analysis of the deposited data

Results flagged for a closer look

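Of 14 groups of levels tested (7 genes, in tumors and in normal lungs), 2 held a library whose gap to its neighbor was a large part of the group's range. Chance alone flags about 1 group in 20.

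For Msln the normal lung from mouse m335 had 149.3 CPM, and the next of the 5 normal lungs stood at 67.5 CPM. That gap was 0.766 of the range, over a critical value of 0.71. The same lung had the highest sum of skeletal muscle markers (539 CPM). Both tumors of this mouse were also the highest of the 6 tumors for Msln. Without this normal lung Msln changed by -1.97 in tumors against normal lungs (adjusted p = 0.0131 by edgeR's quasi-likelihood test). With the mouse as a block, both tumors of mouse m335 then have no paired normal lung and do not inform that value either.

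For Bnc1 the normal lung from mouse m372 had 6.58 CPM, and the next normal lung 2.93 CPM. The gap was 0.810 of the range. That lung also held the highest sum of 4 thymus markers (317 CPM, against 0.313 to 30.2 CPM in the other normal lungs). Its sum of 4 squamous keratinocyte markers, a cell type that expresses Bnc1, was 14.9 CPM, against 0.435 to 3.75 CPM in the others. Over tumors that sum was 0.231 to 7.37 CPM. It was highest in the ADC and ADN tumors of mouse m335 (7.37 and 6.59 CPM), which had 0 counts of Bnc1. The part of thymus or keratinocytes in the level of Bnc1 was not tested.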

How the results depend on the processing

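In tumors against normal lungs all 7 genes stayed below 0 under the 20 alternatives run, and between 5 and 7 were called. Upk3b, Upk1b, Gpm6a and Lrrn4 passed in all 20, Msln in 19, Wt1 in 12 and Bnc1 in 4. In a mouse with 1 tumor, leaving out either library leaves the other without a pair. Such settings nearly repeat each other, so the 20 are not independent. The loss of Msln came without the replicate block, where 5 genes were called, and where Lrrn4 passed in ADN and in ADC tumors (adjusted p = 0.0191 and 0.0122) and Wt1 in ADN tumors (0.0258). Without the block Msln did not pass in ADN or ADC tumors either (adjusted p = 0.235 and 0.349). DESeq2 called 7 genes in ADN and 7 in ADC tumors, where edgeR called 4 each. Leaving out 1 library gave 0 to 6 genes in ADN tumors and 1 to 3 in ADC tumors, with no share of all genes worked out beside these counts. With mice at 7 months only, an alternative chosen after seeing the data together with leaving out mouse m335, 1 gene was called in ADN tumors, from a single ADN library. ADC against ADN gave 0 genes in each alternative. The causes were not tested. With a prior count of 0.5 in place of 2, 5 of the 8 genes of most similar pattern over all libraries were shared, and 7 of the other 8, chosen with group means removed. Wt1 and Bnc1 had at most 22 and 39 counts in a tumor.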
